A study of Mus musculus with 6 samples.

Results

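The circadian clock genes were followed across 6 array profiles of mouse hippocampus. They were Per1, Per2, Dbp, Nr1d1, Nr1d2, Arntl (also called Bmal1), Cry1, Cry2, Tef and Clock, that is, 10 genes out of 8251 named genes on the array. They were chosen by name, and every probe set annotated to them was taken, 12 in all. A probe set is the group of short probes that reads 1 transcript. The study title concerns mice that overexpress HuD, an RNA-binding protein of neurons. The labels describe each of the 6 samples as total RNA of hippocampus and give no genotype, strain, sex, age or time of collection. The transgene's promoter and whether animals were pooled are also not given in the sources used here. No sample could thus be placed in a group, and the text calls them samples 1 to 6, after their titles. No sample is called transgenic or control. Each difference below is between single arrays, without known replicates to set it against.

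The mammalian clock is a feedback loop of transcription. CLOCK and BMAL1, the product of Arntl, bind DNA elements called E-boxes and drive the Per, Cry and Nr1d genes and Dbp. The PER and CRY proteins then return to the nucleus and repress CLOCK and BMAL1, while the REV-ERB proteins made from Nr1d1 and Nr1d2 repress Arntl through elements called ROREs. The loop runs in most tissues, the hippocampus included, and Dbp and Per transcripts there are known to change with the time of day.

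The promoter sequences show where these elements lie near the members' start sites. RefSeq windows (GRCm38.p6) of 300 bases, running from 250 bases before a transcript start to 50 after it, were matched for 9 of the 10 genes, in 14 windows. The E-box CACGTG, which reads the same on both strands, stood in 4 of these windows, belonging to Per1, Cry1 and Tef, and in 7.15% of all 32851 windows of this length. The sequences around the 4 E-boxes are shown because these elements define the arm of the loop to which Per1 belongs. Each is 50 bases long and printed 5′ to 3′, with the E-box in capitals.
Per1, chr11:69098761-69098810, + strand: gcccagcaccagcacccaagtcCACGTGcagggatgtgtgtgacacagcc
Cry1, chr10:85185087-85185136, - strand: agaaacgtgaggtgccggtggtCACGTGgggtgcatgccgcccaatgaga
Tef, first start, chr15:81802524-81802573, + strand: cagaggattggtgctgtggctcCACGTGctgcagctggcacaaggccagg
Tef, second start, chr15:81811254-81811303, + strand: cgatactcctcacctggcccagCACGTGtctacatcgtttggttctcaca
The E-box began 166 bases before the start in Per1, 60 in Cry1, and 127 and 138 in the Tef windows.

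The RORE core AGGTCA, searched on both strands, stood in 4 member windows, those of Arntl, Clock, Nr1d2 and Per1, and in 16.3% of all windows. In Arntl it began at base 32 after the start. A second Per1 window held the core of the cyclic AMP response element, TGACGT (both strands, 7.51% of all windows). The D-box TTANGTAA (both strands), the kind of element that DBP and TEF bind, was in 0 of the 14 windows and in 2.32% of all. Nr1d2 and the second Per1 start are shown as examples of these matches, with the match in capitals.
Nr1d2, RORE core, chr14:18239156-18239205, - strand: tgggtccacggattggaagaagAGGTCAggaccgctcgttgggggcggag
Per1, second start, cyclic AMP element core, chr11:69099998-69100047, + strand: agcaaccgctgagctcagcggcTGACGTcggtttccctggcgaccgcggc
The Dbp window held none of these 4 motifs. Its 103 bases before the annotated gene are given because Dbp varied most among the members.
Dbp, chr7:45704997-45705099, + strand: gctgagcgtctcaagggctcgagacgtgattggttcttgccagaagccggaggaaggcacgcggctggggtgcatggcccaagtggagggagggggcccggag
A match is a description of these letters, and no match says nothing on whether a factor acts on the gene.

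The deposited values are signal intensities on a linear scale, and the array medians lay between 59.9 and 63.3. Each array was divided by its median, and log2 was taken, so that a log2 value of 0 is the array median. Signals are printed as deposited, whereas every range, as a fold or in log2, is after this scaling. Genes whose median over the 6 samples exceeded 0 were taken as expressed, 4838 in all. Of the hippocampal neuron markers, 6 of 7 were expressed, Prox1 being the exception. Hypothalamic markers were expressed for 2 of 6 measured genes (Rgs16 and Oxt), and the medians of Vip, Avp, Six6 and Hcrt lay below the array median. Pineal markers were expressed for 1 of 3 (Aanat). Nothing here tells fewer cells of a type from less RNA per cell.

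Of the 10 clock genes, 9 were expressed, and Per2 was not, beside 4838 expressed of all 8251 named genes. None of the 9 differed by more than 2 times between its highest and lowest sample, as 4.13% of all expressed genes did. Their median range, the highest minus the lowest log2 value, was 0.53, beside 0.40 over all expressed genes. For 6 of the 9 the range lay above that median and for 3 (Arntl, Cry1 and Clock) below it.

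**Figure D1:**
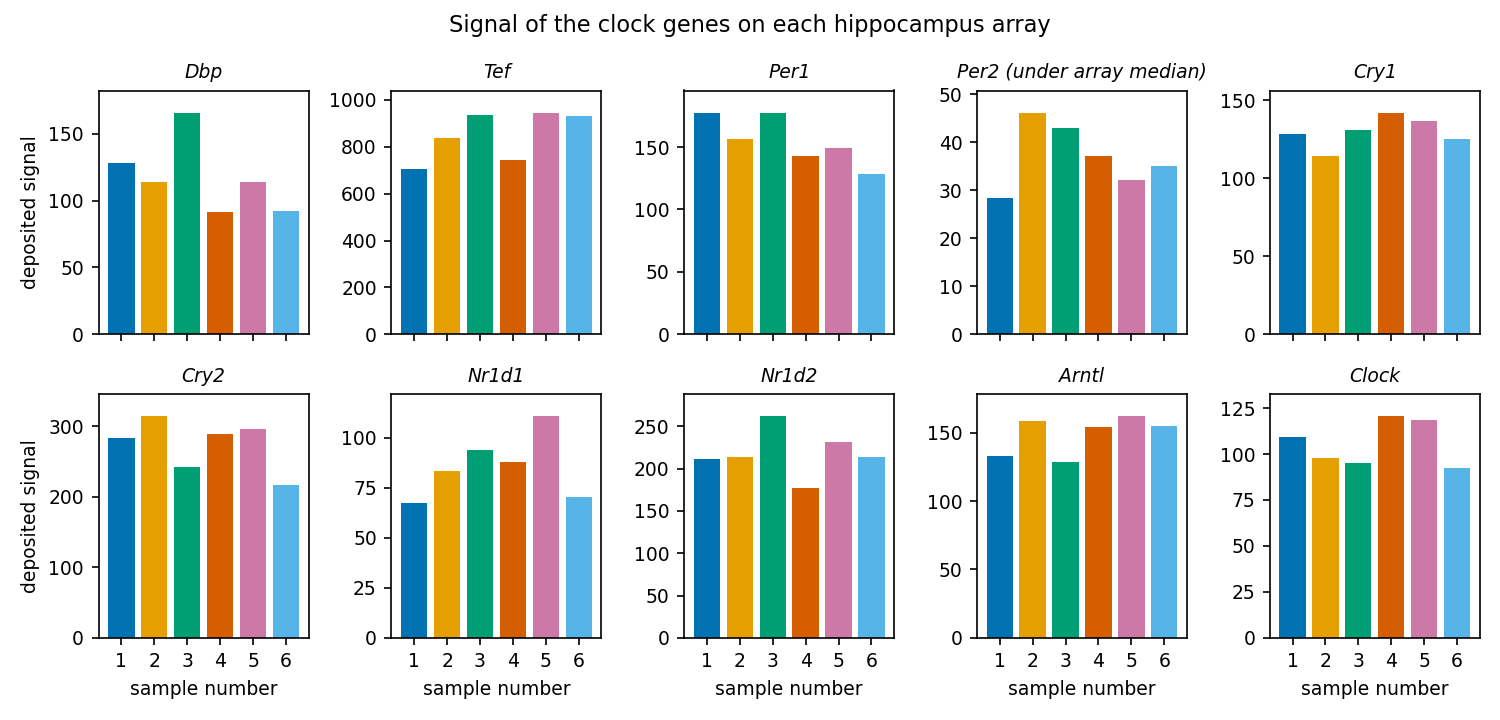
Deposited signal (linear scale, y axis, from 0 and drawn to a different height for each gene) of the 10 clock genes in samples 1 to 6 (x axis). Each array has 1 bar without an error bar, since the labels do not say which samples are replicates. Dbp was highest in sample 3 and lowest in samples 4 and 6. The bars of Arntl and Cry1 varied less than those of Dbp, and Arntl was lower in samples 1 and 3 than in the others.

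Dbp and Tef encode related transcription factors of the PAR bZip family, which pass the clock's rhythm on to output genes. Dbp had signals of 128, 114, 166, 91.3, 114 and 92.3 in samples 1 to 6. Sample 3 thus stood highest, sample 1 next, samples 2 and 5 nearly level, and samples 4 and 6 lowest. After scaling, the range of Dbp was 1.92-fold (0.94 on the log2 scale), which was larger than that of 94.8% of expressed genes. Sample 3 carried much of it, since the range was 0.50 on the log2 scale without that sample. In sample 3 the 3' to 5' signal ratios of the pyruvate carboxylase (3.56) and transferrin receptor (3.47) controls, a sign of RNA or labelling quality, were also the highest of the 6. The beta-actin and Gapdh ratios were highest in sample 1 instead. The part of RNA quality in the Dbp values was not tested.

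Tef had the strongest signal of its own probe set in samples 5, 3 and 6, at 946, 938 and 931. Samples 2, 4 and 1 followed at 836, 745 and 705. The order differed from that of Dbp: sample 1 was lowest for Tef and second highest for Dbp. The range was 1.39-fold, and sample 3 was highest after scaling to the median, whereas sample 5 was highest in deposited signals and after quantile normalization.

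The period genes encode the repressors whose build-up closes the loop. Per1 had signals of 177, 157, 178, 143, 149 and 129 in samples 1 to 6. Samples 1 and 3 were level at the top and sample 6 lowest, with a range of 1.45-fold (0.53 on the log2 scale). Per2 was below the array median throughout, so its values are not shown to be above background. Its signals were 28.5, 46.2, 43.0, 37.2, 32.1 and 35.1 in samples 1 to 6. No fold is given and no order is read at this level.

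The cryptochromes are the partners of the PER proteins in repression. Cry1 was read by 3 probe sets, and 2 of them, whose names mark less specific probes, had signals of at most 1.86 and 1.58 and lay at the floor in all samples. The third, whose name marks probes shared within a sequence family, had signals of 128, 114, 131, 142, 137 and 125 in samples 1 to 6. These values lay close together, with a range of 1.21-fold, larger than that of only 21.9% of expressed genes. Cry2 had signals of 284, 314, 243, 289.9, 296 and 217 in samples 1 to 6. Samples 6 and 3 were low for Cry2 and the other 4 were close together. The Cry2 range was 1.49-fold (0.57 on the log2 scale) and 0.34 on that scale without sample 6.

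Nr1d1 and Nr1d2 encode REV-ERB alpha and beta, nuclear receptors that repress Arntl. Nr1d1 was dim, with signals of 67.4, 83.6, 93.8, 87.8, 111 and 70.3 in samples 1 to 6. Sample 5 was highest and samples 1 and 6 lowest, just above the array median, with a range of 1.63-fold. Nr1d2 had signals of 211, 214, 262, 176, 232 and 213 in samples 1 to 6. Samples 1, 2 and 6 were level, sample 3 stood above them and sample 4 below, with a range of 1.57-fold (0.65 on the log2 scale). Without sample 3 the Nr1d2 range was 0.40 and without sample 4 it was 0.38. Samples 3 and 5 were thus the 2 highest for both paralogues. Sample 5 came first for Nr1d1 and sample 3 for Nr1d2, under each of the 3 scalings. The lowest sample differed, being sample 1 for Nr1d1 and sample 4 for Nr1d2.

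Arntl and Clock encode the activators of the loop. Arntl had signals of 133, 159, 129, 154, 162 and 155 in samples 1 to 6. Samples 1 and 3 were low and the other 4 close together, with a range of only 1.22-fold. Sample 1 was the lowest of the pair after scaling to the median, and sample 3 in deposited signals and after quantile normalization. Clock had signals of 109, 98.1, 94.9, 121, 119 and 92.5 in samples 1 to 6. Samples 4 and 5 were high and samples 6, 3 and 2 low, with a range of 1.29-fold.

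**Figure D2:**
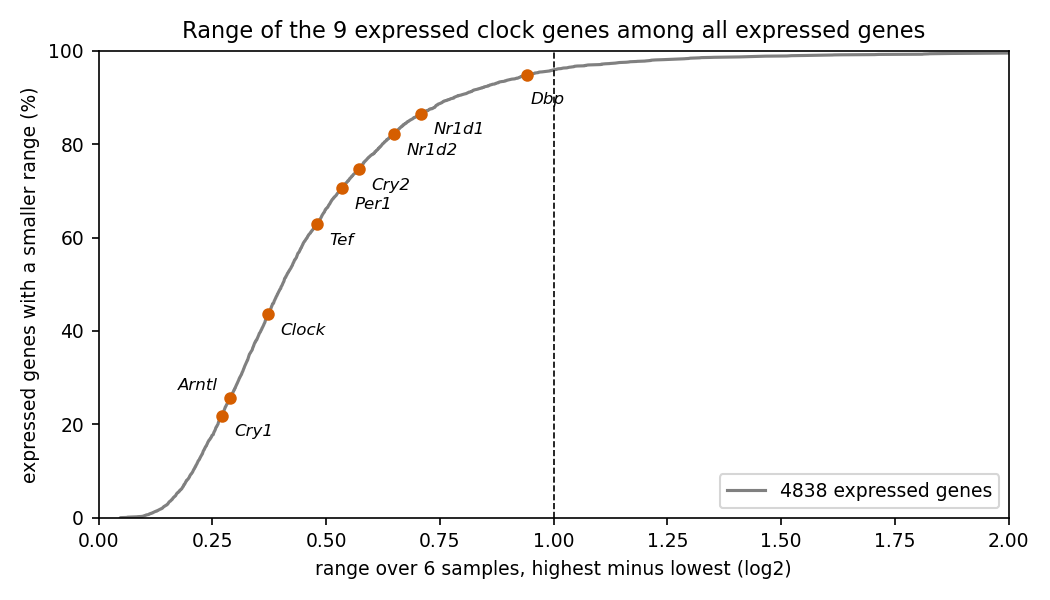
Range over the 6 samples on the log2 scale (x axis) against the percentage of the 4838 expressed genes with a smaller range (y axis), with the 9 expressed clock genes as points on the curve of all expressed genes and a dashed line at a 2-fold range. Dbp lies at 0.94, left of the line, and Cry1, Arntl and Clock lie below the median gene.

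After scaling, 4 of the 9 expressed members (Dbp, Per1, Nr1d2 and Tef) were highest in sample 3, beside 31.1% of all expressed genes, so that sample 3 was the most frequent highest sample for the array as a whole. Without scaling or with quantile normalization Tef was highest in sample 5. Lowest values were spread, with 3 members lowest in sample 1 (Nr1d1, Arntl and Tef), 3 in sample 6 (Per1, Cry2 and Clock), 2 in sample 4 (Dbp and Nr1d2) and 1 in sample 2 (Cry1). Over all expressed genes these samples were lowest for 21.6%, 15.0%, 20.7% and 11.6%.

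**Figure D3:**
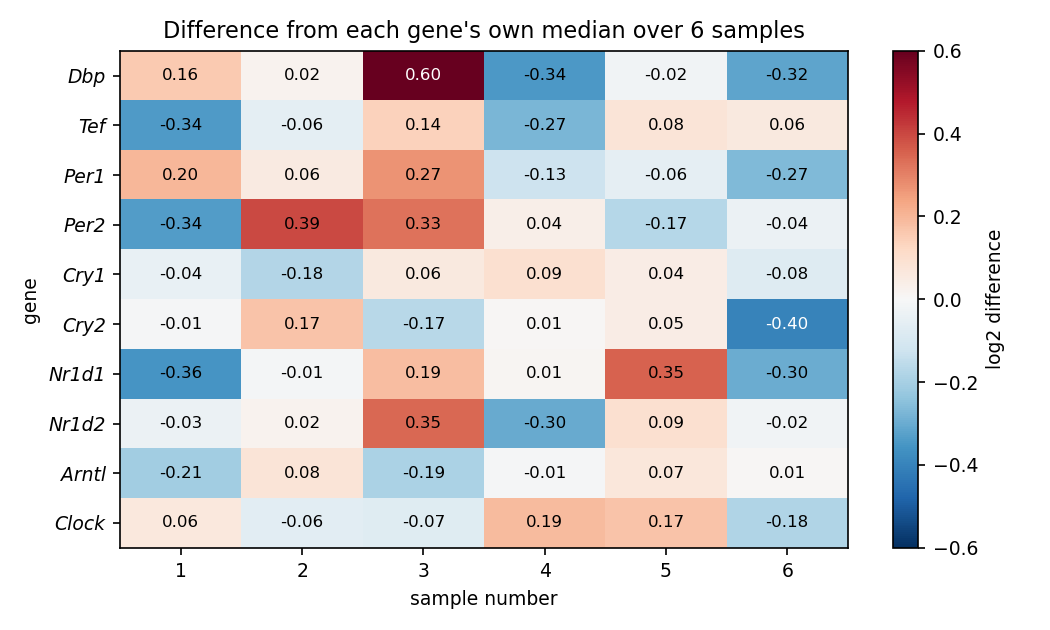
Log2 difference of each clock gene (rows) in each sample (columns) from that gene's own median over the 6 samples, with red for higher and blue for lower. Dbp and Per1 share a row pattern, with 0.60 and 0.27 in sample 3, -0.34 and -0.13 in sample 4, and -0.32 and -0.27 in sample 6, and Arntl is at -0.21 and -0.19 in samples 1 and 3.

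Whether the members varied together was examined for all 36 pairs of the 9 expressed genes, with Pearson's r over the 6 samples and an exact two-sided permutation test. Of the 36 pairs, 23 had r above 0 and 13 below, with a median r of 0.12. Beside this, the expressed genes other than members had a median r of 0.22 with Dbp (64.0% above 0). With Per1 it was 0.17 (60.8%) and with Arntl -0.13 (42.6%). The share over all pairs of expressed genes was not computed, so the count of pairs above 0 is not read as a trait of the members. By this test 1 pair had an unadjusted p under 0.05 and 0 pairs an adjusted p under 0.05, and by Spearman's rho these counts were 2 and 0. The smallest exact p that 6 samples allow is 0.00139, so a single pair among 36 cannot go below an adjusted p of 0.05. Nothing in the labels says that the samples are separate animals, and the p-values then cover only the spread between these arrays.

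Dbp and Per1 were the most closely related pair. Both were highest in sample 3, then in samples 1, 2 and 5, and lowest in samples 4 and 6. Their r was 0.92 (exact permutation p = 0.0125, Benjamini-Hochberg adjusted p = 0.45, n = 6). Spearman's rho was 0.94 (exact permutation p = 0.0167, adjusted p = 0.60). Without the 2 samples farthest from the median of Dbp, r was 0.98, and with any 1 sample left out it lay between 0.91 and 0.95. Without sample 3 it was 0.91 (exact permutation p = 0.05, n = 5). A code in the titles sets sample 2 apart (2, where the others have 1), and without that sample the r was 0.92. Among the 4829 expressed genes that are not members, 2.65% had an r of 0.9 or more with Dbp, so a value of this size was not rare on these arrays.

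Markers of other cells were set beside this order. The choroid plexus list (5 of 5 measured, 2 expressed) had summed signals of 134, 141, 335, 1802, 723 and 2133 in samples 1 to 6. Its highest sums were in samples 4 and 6, where Dbp and Per1 were lowest. The medians of Kl, Aqp1 and Cldn2 lay below the array median. The hippocampal neuron list (7 of 7 measured, 6 expressed) had summed signals of 2858, 3707, 2524, 4174, 4279 and 3612. Its lowest sums were in samples 3 and 1, where Dbp and Per1 were highest. The hypothalamic list (6 of 8 measured, 2 expressed) was also highest in samples 6 (422) and 4 (409), and lowest in sample 1 (321). The microglia list was highest in samples 6 (1290) and 4 (1262) too, and lowest in sample 1 (1118). Not every list followed this order: the meninges sums were highest in samples 2 and 1, and the oligodendrocyte sums were lowest in samples 1 and 2. These are sums of deposited signals, so the brightest genes of a list weigh most. The part of tissue composition in the clock gene values was not tested.

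Nr1d2 followed Dbp through 2 samples only. Their r was 0.85 (exact permutation p = 0.0556, adjusted p = 0.82, n = 6), with rho of 0.60. Without the 2 samples farthest from the median of Dbp it was 0.04, so the relation rests on those samples. Nr1d2 and Tef had an r of 0.74 (exact permutation p = 0.0681, adjusted p = 0.82) and a rho of 0.89 (exact permutation p = 0.0333, adjusted p = 0.60). Both genes had their higher values in samples 3 and 5. Without the 2 samples farthest from the median of Nr1d2 the r was 0.62. The paralogues Nr1d1 and Nr1d2 had an r of 0.40 (exact permutation p = 0.443, adjusted p = 0.95) and a rho of 0.60. Their r was 0.995 without the 2 samples farthest from the median of Nr1d2. It was 0.42 without the 2 farthest from that of Nr1d1.

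Nr1d1 and Per2 are, like Dbp, among the genes that CLOCK and BMAL1 drive. The r of Dbp with Nr1d1 was 0.30 (exact permutation p = 0.586, adjusted p = 0.96) and rho was -0.03. With Per2 it was 0.30 (exact permutation p = 0.568, adjusted p = 0.96 over all 45 pairs), and -0.23 without sample 3. The Per2 values are not shown to be above background, so its r carries little information. Such p-values do not show that the genes vary independently.

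Arntl belongs to the opposite arm of the loop from Dbp and Per1. Its samples fell into 2 sets, with samples 1 and 3 low and samples 2, 4, 5 and 6 higher. Dbp and Per1 were highest in the former 2 samples. Over all 6 samples the r of Arntl with Dbp was -0.65 (exact permutation p = 0.16, adjusted p = 0.95) and with Per1 -0.71 (exact permutation p = 0.139, adjusted p = 0.95). Because of the 2 sets these values mostly describe the gap between samples 1 and 3 and the rest. Without the 2 samples farthest from the median of Arntl, which are those 2, the r with Dbp was 0.998 and with Per1 0.82, so the negative sign rests on them. Neither set holds enough samples for a test within it. The marker sums of neurons and astrocytes split in the same way: the neuron list had 2858 and 2524 in samples 1 and 3 and 3612 to 4279 in the others. The astrocyte list (5 of 6 measured, all 5 expressed) had 1390 and 1399 in samples 1 and 3 and 1541 to 1678 in the others. Not all lists did so. The oligodendrocyte sums were 4667 and 6010 in samples 1 and 3 and 4845 to 6419 in the others. The meninges sums were 5938 and 3331 in samples 1 and 3 and 2955.5 to 6854 in the others. The part of tissue composition in the Arntl split was not tested.

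**Figure D4:**
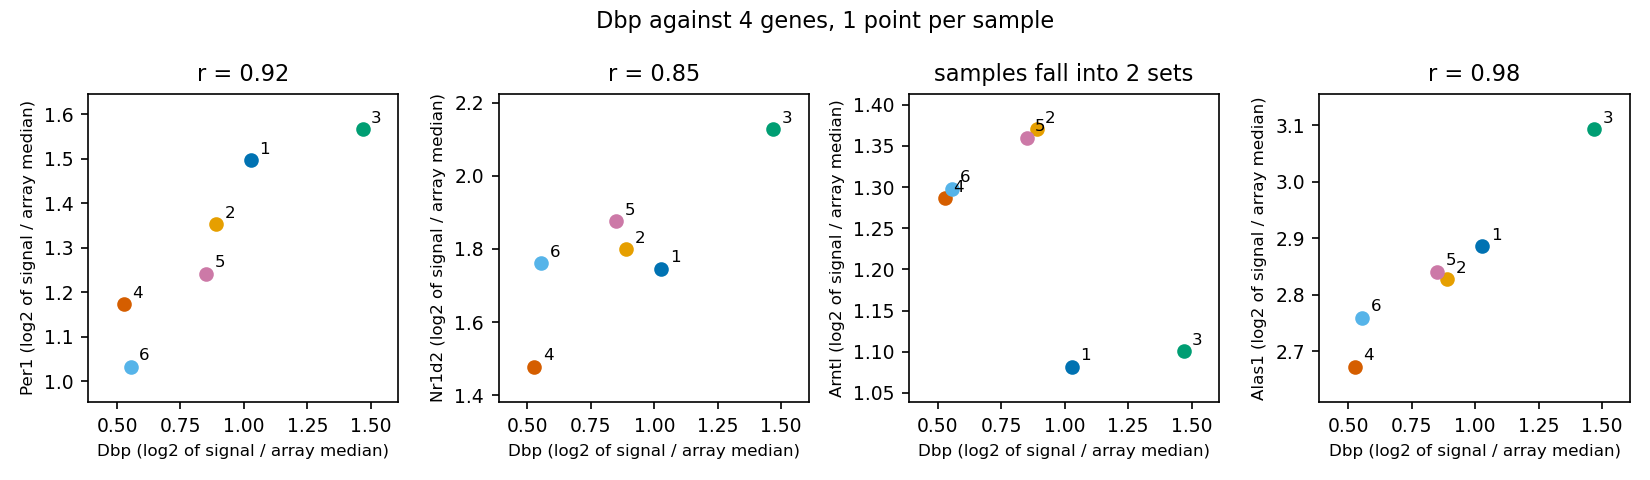
Log2 of signal over the array median of Per1, Nr1d2, Arntl and Alas1 (y axes) against Dbp (x axes), 1 point per sample labelled by its number. Per1 and Alas1 rise along Dbp over the 6 points (r of 0.92 and 0.98), Nr1d2 does so mainly through samples 3 and 4, and Arntl is low in samples 1 and 3 only.

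The other genes of the clock machinery were taken from a fixed list of 19, of which 11 were measured and 7 expressed. None of the 7 had a range over 2-fold, beside 4.13% of all expressed genes, and their median range was 0.46, beside 0.40. For 5 of the 7 the r with Dbp lay above 0, beside 64.0% of all expressed genes. The median r was 0.26, beside 0.22 over all expressed genes. Per3, the third period gene, had signals of 92.4, 72.9, 69.5, 101, 88.4 and 83.1 in samples 1 to 6. Its low point was sample 3, where Per1 and Dbp were highest, and its peak was sample 4. Bhlhe40, the E-box repressor DEC1, had its lowest signal in sample 5 (191) and its highest in samples 4 (283) and 3 (277). After scaling sample 3 was highest, and the range was 1.53-fold. Csnk1e, a casein kinase that phosphorylates PER proteins, ranged from 249.7 in sample 3 to 429.8 in sample 1 (1.64-fold after scaling). The related kinase gene Csnk1d varied little, from 869.6 to 942 (1.14-fold after scaling), although 2 of its other probe sets, with names that mark less specific or shared probes, ranged by 1.39 and 0.87 on the log2 scale. Btrc and Fbxw11, which encode the ubiquitin ligase subunits that mark PER for degradation, ranged 1.39-fold and 1.15-fold. A second Fbxw11 probe set ranged by 0.57 on the log2 scale and was highest in sample 4 (442). Timeless ranged 1.32-fold. Npas2, the Clock paralogue, and Sirt1 were below the array median on all 6 arrays. Nfil3, the repressor that competes with DBP, was below it on 5 arrays and Rora, the activator of ROREs, on 3.

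Genes known as outputs of the clock were taken from a list of 9, of which 8 were measured and 5 expressed. For 4 of the 5 the r with Dbp lay above 0, with a median of 0.63, beside 0.22 over all expressed genes, of which 64.0% lay above 0. Klf9 was the exception (-0.24). Of the measured genes not expressed, whose values are uncertain, Wee1 had an r of 0.82, Cdkn1a -0.88 and Tsc22d3 -0.61. Alas1, the first enzyme of haem synthesis, is singled out after its values were seen. It had signals of 464, 436, 511, 404, 452 and 426 in samples 1 to 6. Sample 3 was highest and sample 4 lowest, as for Dbp, within a range of 1.34-fold. The r with Dbp was 0.98 (exact permutation p = 0.00278, adjusted p = 0.092 over 33 genes of the fixed lists, n = 6) and 0.98 without the 2 farthest samples. Pdxk, the pyridoxal kinase reported as a target of the PAR bZip factors, ranged from 613 in sample 4 to 841 in sample 3 (1.45-fold after scaling). Its r with Dbp was 0.82 (exact permutation p = 0.0431, adjusted p = 0.36 over the same 33 genes), which fell to 0.19 without the 2 farthest samples, and a second, dim probe set had -0.63. Usp2, a deubiquitinase gene under clock control, ranged from 299 in sample 5 to 439 in sample 1 in deposited signals (0.58 on the log2 scale after scaling, with sample 3 highest). Its r with Dbp was 0.26 (exact permutation p = 0.596). A second Usp2 probe set, with signals from 254 to 315, had an r of 0.62 with Dbp.

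The expressed genes with patterns most like a member were ranked by r over the 6 samples, as a description. For Dbp these were Sdha, a subunit of succinate dehydrogenase (r = 0.99, signals from 280.3 in sample 6 to 311 in sample 3), Coro2b, an actin-binding coronin (0.99), and Asns, asparagine synthetase (0.98). They varied less than Dbp, by 1.17-fold, 1.37-fold and 1.20-fold. For Per1 these were Adcy6, an adenylyl cyclase (0.99, from 142 in sample 6 to 183 in sample 1), Cul3, a ubiquitin ligase scaffold, and Pdcd6, a calcium-binding protein (both 0.99). An r of 0.9 or more with Per1 was found for 1.95% of expressed genes. For Arntl they were Nsun2, an RNA methyltransferase (0.99), Ppy, pancreatic polypeptide (0.99), and Slc8a1, a sodium-calcium exchanger (0.98), with 1.18% of expressed genes at 0.9 or more. Slc8a1 had signals of 227 and 198 in samples 1 and 3 and from 325 to 377 in the other 4, the same split as Arntl.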

How the data were processed

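Total RNA of 6 mouse hippocampus samples was measured, 1 array each. The table holds 12488 probe sets, 66 of them controls. The authors deposited linear signal intensity per probe set. Not given in the sources used here were the scanner, the summary method and the scaling. Precision is limited by the number of arrays. Names come from the platform annotation, updated by gene identifier through RefSeq (GRCm38.p6). Only probe sets with 1 symbol (10833) were used, not those with several (396) or none (1193). Each array was divided by its median without controls, values were raised to a floor of 0.2 of it, and log2 values were computed. Where a gene had several probe sets, the one with the highest mean stood for it. Exact permutation tests used all 720 pairings, with Benjamini-Hochberg adjustment, and were tested on simulated data (Python 3.11.15, numpy 2.4.6, pandas 2.3.3). The genes named were all members, the measured genes of the other clock list, the widest 2 expressed genes of each other list, and the 3 genes most like Dbp, Per1 and Arntl. Alas1, Hspa1b and Hspa1a fall outside this rule and were chosen after their values were seen. Klf9, Wee1, Cdkn1a and Tsc22d3 also fall outside it and are named to complete the clock output list. The members and lists were chosen with earlier results of these data known. Alternatives were the scaling, the floor, the filter, the probe set rule, Spearman's rho and leaving out each sample.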

Additional observations from a re-analysis of the deposited data

How the results depend on the processing

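No clock gene had a range over 2-fold and no pair passed an adjusted p of 0.05 (with all samples and unadjusted, 1 pair of 36 by the exact permutation test and 2 by rho) under any scaling, floor, filter, probe set rule or omitted sample tried. For pairs this count says nothing on stability, since a single pair cannot go below an adjusted p of 0.05 with 6 samples or 0.3 with 5. The number of expressed clock genes was 9 with each sample left out, 8 with the mean of probe sets, where Cry1 was no longer expressed, and 3 (Nr1d2, Cry2 and Tef) with the filter at the 75th percentile, which by construction keeps only brighter genes. The median range was 0.39 to 0.53 with 1 sample left out and 0.47 to 0.57 under the other settings. Leaving out 1 sample, the r of Dbp with Per1 ran from 0.91 to 0.95, with Arntl from -0.74 to -0.38, with Nr1d1 from -0.014 to 0.53 and with Per2 from -0.23 to 0.58. The sign for Nr1d1 and Per2 turned without sample 3, and for Nr1d1 also with Spearman's rho (-0.029); the cause was not tested. With the mean of probe sets the Cry1 range was 0.09, since the dim probe sets sit at the floor. With the floor at the array median Per2 had no range. No paired analysis was possible because no sample has a group. Without detection calls, dim signals such as those of Per2 and Nr1d1 are uncertain.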

Other observations

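Lists of signals known to act on Per1 and the clock were also measured. Of 10 immediate early genes expressed, which respond to neuronal activity, 3 had an r above 0 with Dbp (median -0.12), beside a median of 0.22 and 64.0% above 0 over all expressed genes. With Per1, 6 of the 10 had an r above 0 (median 0.07), beside a median of 0.17 and 60.8% over all expressed genes. Fos had its minimum of 90.8 in sample 3 and its maximum of 210.3 in sample 1 (2.21-fold after scaling), and Egr2, a transcription factor of the same response, ran from 38.9 in sample 3 to 75.2 in sample 1, its low value lying below the array median. Sample 3 was thus low for both while it was high for Dbp and Per1, and sample 1 was high for both and also for Dbp and Per1. The r with Per1 over the 6 samples was -0.29 for Fos and -0.41 for Egr2. Without the 2 samples farthest from the median of Dbp, the r with Dbp turned from -0.46 to 0.68 for Fos. For Egr2 it turned from -0.55 to 0.29. Of 6 glucocorticoid-responsive genes expressed, 3 had an r above 0 with Dbp (median 0.04), beside 64.0% above 0 over all expressed genes. With Per1, 4 of the 6 did (median 0.20), beside 60.8% over all expressed genes. Sgk1, a kinase induced by corticosteroids, ran from 287 in sample 2 to 462 in sample 4, high in samples 4, 5 and 6, and Mt2, a metallothionein, from 1910.3 in sample 1 to 2510.3 in sample 3.

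Of 7 temperature-responsive genes expressed, 4 had an r above 0 with Dbp (median 0.38), a share of 57.1% beside 64.0% over all expressed genes. Cirbp, an RNA-binding protein induced by mild cold and known to support clock amplitude, had signals of 428, 349.7, 488, 363, 322 and 348 in samples 1 to 6, a 1.60-fold range after scaling. It was highest in sample 3 and next in sample 1, as Dbp and Per1 were. Its r with Dbp was 0.83 (exact permutation p = 0.0542, adjusted p = 0.36 over 33 genes) and 0.56 without the 2 farthest samples. Hspa1b, a heat-inducible chaperone chosen here after its values were seen, had a larger r with Dbp, 0.90 (exact permutation p = 0.0222, adjusted p = 0.35), and 0.77 without the 2 farthest samples. Its signals varied little, from 137 to 157 (1.20-fold after scaling). Its paralogue Hspa1a had an r of -0.03 with Dbp, and -0.50 without the 2 farthest samples. Hsph1, a chaperone of the heat shock response, ran the other way between samples 1 and 3, with 1298 in sample 1 and its minimum of 982 in sample 3. Over the 33 expressed genes of these lists, the other clock genes and the clock outputs, 4 had an exact permutation p under 0.05 for r with Dbp and 0 an adjusted one.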
